A study of Mus musculus with 8 samples.

Results

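The mucus genes of goblet cells described here are 9 genes, Muc2, Tff3, Clca1, Fcgbp, Zg16, Agr2, Spdef, Retnlb and Spink4, taken by gene symbol from the deposited tables of 54139 genes. All 9 were in the tables and all 9 passed the filter on low counts, as did 14701 genes in all. Their levels were measured by RNA sequencing of mouse intestinal epithelial cells in 4 cKO libraries, from mice with a floxed Rictor gene and the Villin-Cre transgene, and in 4 WT libraries, from mice with Villin-Cre alone. Both groups therefore carry Cre under the Villin promoter, which is active throughout the intestinal epithelium, so that a change in goblet cells cannot be told apart from one that begins in other epithelial cells. Rictor is an essential component of mTOR complex 2, one of the mTOR kinase complexes, which acts on Akt, and the comparison asks which transcripts differ when it is deleted. The sources used here give neither the age and sex of the mice, nor the intestinal segment, nor the exons between the loxP sites. Nothing in the labels ties the libraries to separate mice, so the p-values measure only the spread between these libraries, which may be technical.

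Goblet cells are secretory cells of the gut epithelium that store mucus in apical granules and release it as a gel over the mucosa. The gel is built from the Muc2 mucin, which is linked by disulphide bonds in the endoplasmic reticulum, heavily O-glycosylated in the Golgi and packed into granules, and which unfolds on release. Other goblet cell products are released with it and act on the gel or within it, and transcription factors downstream of Atoh1, among them Spdef, drive the maturation of the cells.

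Promoter sequence from RefSeq on build GRCm38.p6 was available for 4 of the 9 genes, and 3 are shown, because Spdef is an ETS-family factor that acts in goblet cell maturation and each of the 3 holds the letters of an ETS-type motif. Each sequence is the 250 bases before the start annotated in that source, 5′ to 3′ on the strand of the gene. Letters are in lower case, with matches to the searched motifs in capitals. For Agr2 the window ends at 35992924, past the gene start of 35992907 used elsewhere here, so its last bases lie within that gene.
Muc2, chr7:141690090-141690339, plus strand: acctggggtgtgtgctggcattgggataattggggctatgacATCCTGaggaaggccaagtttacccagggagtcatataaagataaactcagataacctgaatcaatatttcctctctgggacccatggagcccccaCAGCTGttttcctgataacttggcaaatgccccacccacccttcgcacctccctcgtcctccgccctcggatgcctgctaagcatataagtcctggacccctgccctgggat
Agr2, chr12:35992675-35992924, plus strand: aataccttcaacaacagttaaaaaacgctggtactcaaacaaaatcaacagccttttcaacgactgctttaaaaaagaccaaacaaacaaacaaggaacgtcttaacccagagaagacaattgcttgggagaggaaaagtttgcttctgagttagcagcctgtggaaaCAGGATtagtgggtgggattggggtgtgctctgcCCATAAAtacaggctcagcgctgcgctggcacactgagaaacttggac
Spdef, chr17:27728952-27729201, minus strand: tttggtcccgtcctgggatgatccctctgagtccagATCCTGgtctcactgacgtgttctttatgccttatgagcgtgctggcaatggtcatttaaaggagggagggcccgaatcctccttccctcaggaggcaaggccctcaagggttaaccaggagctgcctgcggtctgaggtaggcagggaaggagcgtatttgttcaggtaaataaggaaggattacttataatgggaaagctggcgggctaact
Both strands were searched for CAGGAT (ETS type), CAGCTG (the E-box of Atoh1-type factors), TTTATNG (CDX type) and TGTTTAC (forkhead type), and no match in these sequences overlapped another. CAGGAT was found in 3 of the 4 windows available and not in that of Fcgbp, the 3 sequences shown being those that hold it, and in 13.6% of 32851 RefSeq promoter windows of the same length. CAGCTG was in the Muc2 window and in that of Fcgbp (chr7:28070986-28071235, plus strand), against 13.0% of all windows, and TTTATNG was in that of Agr2, against 9.81%. TGTTTAC was in none of the 4 windows and in 3.17% of all windows. These matches describe the letters alone.

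The libraries held from 15110451 to 18351748 counts in cKO and from 15982538 to 18708335 in WT. Rictor itself averaged 32.8 ± 9.24 CPM (read counts scaled to the library total) in cKO and 48.2 ± 7.51 CPM in WT (SD, n = 4 each), without overlap (two-sided exact permutation p = 0.0286, the smallest that 4 against 4 allows). Its log2 fold change of -0.55 ± 0.20 had an adjusted p of 0.921 in the edgeR fit over all genes described next, and was -0.293 without cKO library 3 and WT library 3. Enterocyte markers summed to between 13000 and 19600 CPM in cKO and between 10800 and 26300 CPM in WT, and stromal and endothelial markers to between 2.57 and 3.91 CPM in cKO and between 1.47 and 2.84 CPM in WT. Paneth cell markers, which belong to the small intestine, summed to between 18400 and 30400 CPM in cKO and between 18700 and 31100 CPM in WT, while the colon markers Car1, Hoxb13 and Prdx6b had no count in any library. When all genes were tested with edgeR's quasi-likelihood method and Benjamini-Hochberg adjusted, 2 of 14701 genes passed an adjusted p of 0.05. Popdc3 rose (log2 fold change 3.64 ± 0.37, adjusted p = 0.0112) and Ces1f, a carboxylesterase, fell (-1.21 ± 0.15, adjusted p = 0.0358). Both calls were lost without WT library 1, 2 or 3, and that of Ces1f also without WT library 4, cKO library 1 or cKO library 4. Where leaving out 1 library lost the call, the log2 fold change was 3.504 to 3.599 for Popdc3. For Ces1f it was -1.23 to -1.16.

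None of the 9 mucus genes passed the test in either direction: 0 of 9, against 0.0136% of all genes tested (0.0068% higher and 0.0068% lower). DESeq2's Wald test also called 0 of 9, against 0.252% of all genes tested. Between the groups, 4 genes had a point estimate above 0 and 5 below (49.5% of all genes were below), with a median log2 fold change (cKO over WT) of -0.08, against 0.002 for all genes tested. For 0 of 9 genes did the 4 cKO libraries stand apart from the 4 WT libraries without overlap, against 3.21% of all genes. At an unadjusted p of 0.05 the count was 1 of 9, Clca1, against 3.90% of all genes. In bulk RNA, a change in the number of goblet cells and a change in the RNA per goblet cell could not be told apart.

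**Figure D1:**
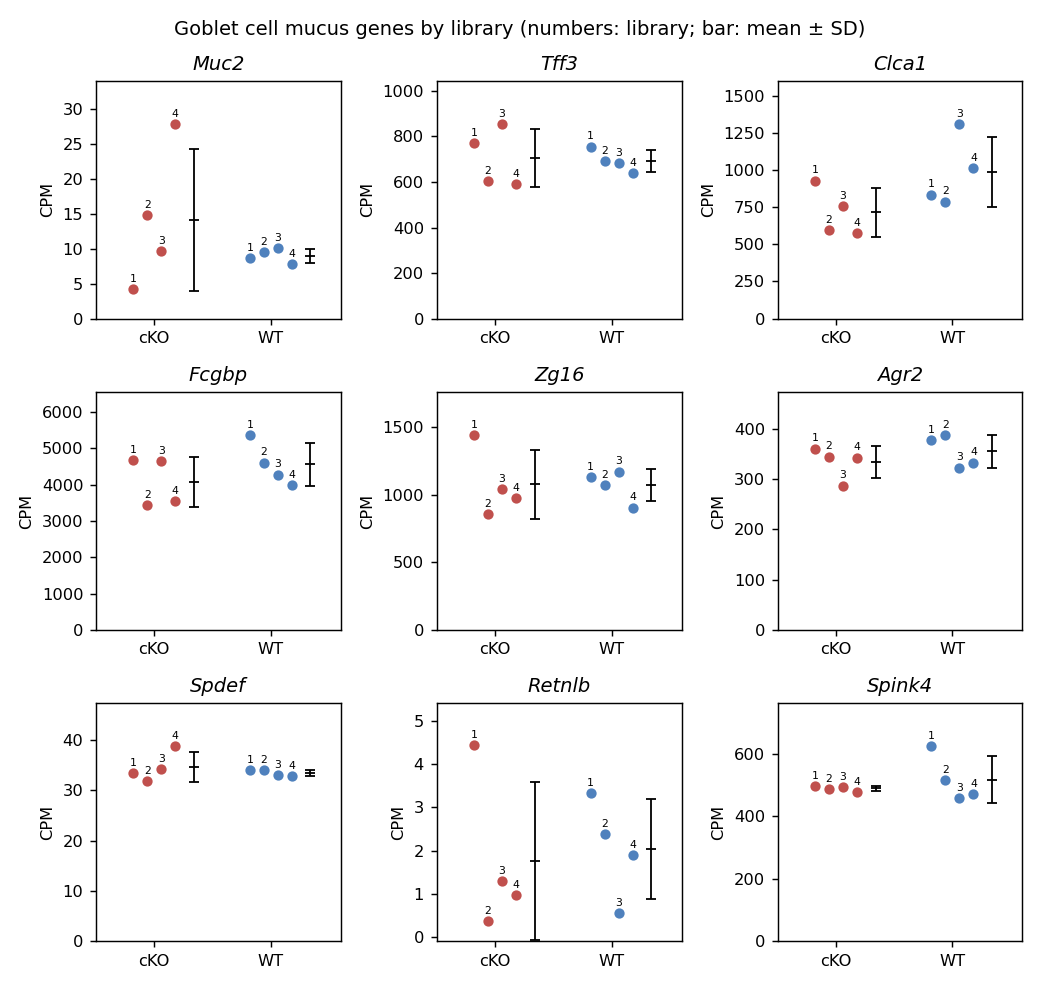
Level of the 9 mucus genes in each library in CPM (linear axes), with cKO on the left and WT on the right of each panel, numbers giving the library and bars the mean ± SD (n = 4 each). The groups overlap in every panel, and the lower end of the SD bar of Retnlb in cKO lies below 0 because the SD of 1.83 exceeds the mean of 1.76 CPM.

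The structural components of mucus come first. Muc2 (ENSMUSG00000025515, chromosome 7, 141690340 to 141754693 on GRCm38, plus strand) encodes the gel-forming mucin of the intestine. Its row in the tables held few reads. It had 71, 250, 172 and 435 counts in cKO libraries 1 to 4, against 163, 172, 163 and 127 counts in WT libraries 1 to 4. In CPM this was 4.21, 14.8, 9.66 and 27.9 in cKO and 8.64, 9.51, 10.1 and 7.77 in WT. The WT libraries lay close together, whereas the cKO libraries held both the lowest and the highest value of the 8. The mean was 14.1 ± 10.2 CPM in cKO and 9.0 ± 1.01 CPM in WT (SD, n = 4 each), a log2 fold change of 0.65 ± 0.47 (95% interval -0.41 to 1.71, adjusted p = 0.921, edgeR). Without cKO library 4 the log2 fold change was 0.09, so its size rests on that library.

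The tables divide this region among several rows. The GENCODE M21 annotation tags Muc2 as a fragmented locus: it has 8 transcripts, and the longest spans 10082 of the 64354 bases of the gene. The tables also list a pair of assembled loci with no Ensembl identifier on CHR_MG3172_PATCH, a patch sequence whose positions in the table fall in or next to the range of Muc2. The table annotates the locus on the plus strand (141690251 to 141722629) with von Willebrand factor type D, C8, trypsin-inhibitor-like and cystine-knot domains, and the locus on the minus strand (141704458 to 141713811) with the WxxW repeating region of Mucin-2. Their positions overlap on opposite strands, and the sources used here do not give the strand setting of the counting, so reads of one cannot be told apart from reads of the other. The patch sequence was not used here.

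Most counts of these 3 rows were in the patch loci. At the minus-strand locus the values were 280, 317, 358 and 341 CPM in cKO libraries 1 to 4, and 372, 364, 382 and 303 CPM in WT libraries 1 to 4. At the plus-strand locus they were 81.1, 96.3, 101 and 77.7 CPM in cKO, and 110, 109, 108 and 90.1 CPM in WT. The groups overlapped at both loci. The log2 fold changes were -0.13 ± 0.12 for the minus-strand locus (324 ± 33.9 CPM in cKO, 355 ± 35.8 CPM in WT) and -0.23 ± 0.12 for the plus-strand locus (88.9 ± 11.2 CPM in cKO, 104 ± 9.40 CPM in WT), both with adjusted p = 0.921 (edgeR, n = 4 each). Neither passed the test.

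The Muc2 row held 1.15%, 3.45%, 2.06% and 6.25% of the counts of the 3 rows in cKO libraries 1 to 4, and 1.76%, 1.97%, 2.02% and 1.94% in WT libraries 1 to 4. The exact 95% binomial interval was 0.901 to 1.45% in cKO library 1, 3.04 to 3.89% in cKO library 2 and 5.69 to 6.84% in cKO library 4, all outside the intervals of all 4 WT libraries, which ran together from 1.5 to 2.35%. In cKO library 3 it was 1.77 to 2.39%, which overlapped them. These intervals cover counting error only. The split of reads between the rows therefore varied among cKO libraries by more than counting error, and the total varied less. Summed over the 3 rows, an alternative chosen after seeing the data, the level was 427 ± 44.4 CPM in cKO and 468 ± 45.8 CPM in WT, a log2 fold change of -0.13 ± 0.12 (95% interval -0.40 to 0.13, adjusted p = 0.921, edgeR, n = 4 each). The sign was thus opposite to that of the Muc2 row alone.

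**Figure D2:**
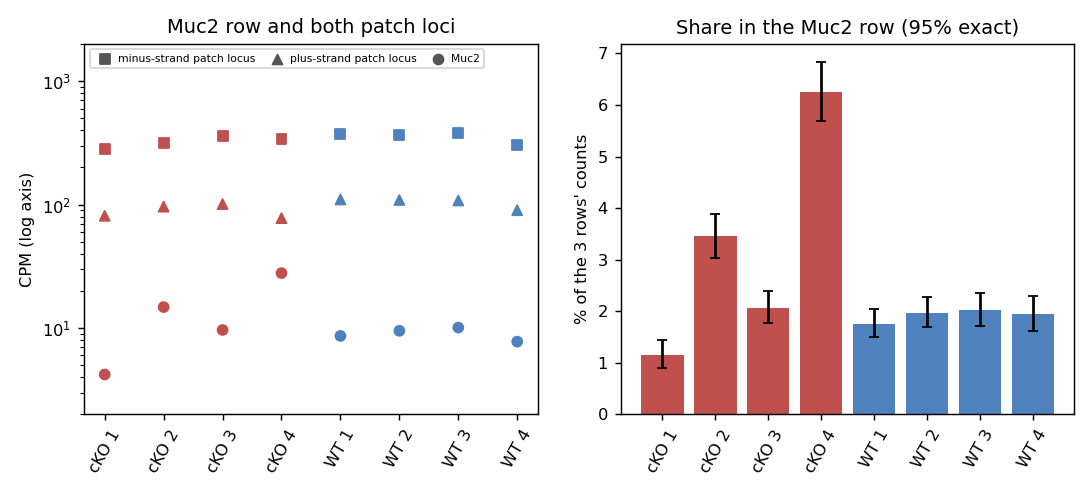
Left, CPM (log axis) of the Muc2 row and of the plus-strand and minus-strand patch loci in cKO libraries 1 to 4 (red) and WT libraries 1 to 4 (blue); right, the Muc2 row as a percent of the counts of the 3 rows, with exact 95% binomial intervals. The patch loci lie far above the Muc2 row in all 8 libraries, and the share of the Muc2 row is lowest in cKO library 1 (1.15%) and highest in cKO library 4 (6.25%).

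Across the 8 libraries, the genes whose log2 CPM followed the Muc2 row most closely were Gm37637 (Pearson r = 0.96, chromosome 9), Ccdc15 (0.947, chromosome 9) and Pop4 (0.947, chromosome 7), each with Spearman rho = 0.833. They were selected for their r, which is given as a description. Without the libraries farthest from the median of Muc2, cKO 1 and cKO 4, r was 0.782, 0.734 and 0.843 in the same order. The Muc2 row had negative r with 7 of the other 8 mucus genes.

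Fcgbp (chromosome 7, 28071236 to 28120862) encodes a large secreted protein with repeated von Willebrand D domains that is held in the mucus with Muc2. It had 4670, 3430, 4650 and 3540 CPM in cKO libraries 1 to 4, against 5370, 4610, 4280 and 3990 CPM in WT. The group ranges overlapped, with the highest value in WT library 1 and the lowest in cKO library 2. Its log2 fold change was -0.16 ± 0.16 (4070 ± 677 CPM in cKO, 4560 ± 593 CPM in WT, SD, n = 4 each; 95% interval -0.51 to 0.18, adjusted p = 0.921, edgeR). Fcgbp alone held from 53.6 to 57.2% of the counts of the 9 genes in cKO and from 51.8 to 58.7% in WT.

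Clca1 (chromosome 3, 145003817 to 145032776) encodes a secreted metalloprotease of mucus that processes Muc2. Its values were 929, 598, 757 and 575 CPM in cKO libraries 1 to 4, and 834, 787, 1310 and 1010 CPM in WT libraries 1 to 4. The values of cKO libraries 2, 3 and 4 were below the lowest WT library, and that of cKO library 1 was above WT libraries 1 and 2. The mean was 715 ± 164 CPM in cKO and 985 ± 237 CPM in WT (SD, n = 4 each), a log2 fold change of -0.46 ± 0.20 (95% interval -0.90 to -0.03, unadjusted p = 0.0395, adjusted p = 0.921, edgeR). The difference does not hold up against the adjustment over all genes. It kept its sign under all alternatives run, between -0.615 without cKO library 1 and -0.296 without WT library 3, whose value was the highest.

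Zg16 (chromosome 7, 127050156 to 127087328) encodes a small lectin of mucus that binds the cell wall of Gram-positive bacteria. It had 1440, 854, 1040 and 971 CPM in cKO libraries 1 to 4, against 1130, 1070, 1170 and 903 CPM in WT. Both the highest and the lowest value were in cKO. The means were 1080 ± 256 CPM in cKO and 1070 ± 117 CPM in WT, with a log2 fold change of 0.01 ± 0.17 (95% interval -0.36 to 0.38, adjusted p = 0.991, edgeR, n = 4 each).

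Tff3 (chromosome 17, 31125306 to 31129646) encodes the trefoil peptide of goblet cells, which acts in epithelial repair. Its values were 769, 605, 855 and 591 CPM in cKO libraries 1 to 4, and 755, 692, 684 and 638 CPM in WT libraries 1 to 4. The WT range lay wholly within the cKO range. The means were 705 ± 129 CPM in cKO and 692 ± 47.9 CPM in WT, with a log2 fold change of 0.03 ± 0.14 (95% interval -0.28 to 0.34, adjusted p = 0.976, edgeR, n = 4 each). The signs of Zg16 and Tff3 changed under several alternatives, so neither gene has a direction here.

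Agr2 (chromosome 12, 35992907 to 36004087) encodes a protein disulphide isomerase of the endoplasmic reticulum that is required for Muc2 production in mice. It had 361, 345, 287 and 343 CPM in cKO libraries 1 to 4, against 378, 388, 323 and 333 CPM in WT. Its cKO range overlapped the WT range, and cKO library 3 was the lowest of the 8. The log2 fold change was -0.09 ± 0.12 (334 ± 32.6 CPM in cKO, 355 ± 32.4 CPM in WT, SD, n = 4 each; 95% interval -0.34 to 0.17, adjusted p = 0.924, edgeR).

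Spdef (chromosome 17, 27714352 to 27728951) encodes the ETS-family transcription factor of goblet and Paneth cell maturation. Its values were 33.4, 31.9, 34.2 and 38.8 CPM in cKO libraries 1 to 4, and 34, 34, 33.1 and 32.8 CPM in WT libraries 1 to 4. Spdef was the steadiest of the 9 genes, with a coefficient of variation over the 8 libraries of 6.07%, against a median of 17.4% over all genes tested. Its log2 fold change was 0.05 ± 0.10 (34.6 ± 2.97 CPM in cKO, 33.5 ± 0.625 CPM in WT, SD, n = 4 each; 95% interval -0.18 to 0.27, adjusted p = 0.955, edgeR).

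Retnlb (chromosome 16, 48816856 to 48818891) encodes RELM-beta, a secreted antibacterial protein that type 2 cytokines and gut bacteria induce in goblet cells. It was near the lower limit of measurement, with 75, 6, 23 and 15 counts in cKO libraries 1 to 4, against 63, 43, 9 and 31 counts in WT. This was 4.44, 0.354, 1.29 and 0.963 CPM in cKO and 3.34, 2.38, 0.556 and 1.90 CPM in WT. Both groups spanned a wide range, and the exact Poisson intervals of cKO library 1 (3.49 to 5.57 CPM) and cKO library 2 (0.130 to 0.772 CPM), which cover counting error only, did not meet. This gave a log2 fold change of -0.22 ± 0.71 (1.76 ± 1.83 CPM in cKO, 2.04 ± 1.16 CPM in WT, SD, n = 4 each; adjusted p = 0.969, edgeR). The 95% interval, -1.81 to 1.38, leaves room for a change of more than 2-fold in either direction.

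Spink4 (chromosome 4, 40920052 to 40931395) encodes a Kazal-type protease inhibitor secreted by goblet cells. It had 497, 488, 494 and 478 CPM in cKO libraries 1 to 4, against 625, 515, 459 and 470 CPM in WT. The cKO libraries agreed within a narrow range that lay inside the WT range. The log2 fold change was -0.08 ± 0.12 (489 ± 8.53 CPM in cKO, 517 ± 75.7 CPM in WT, SD, n = 4 each; 95% interval -0.35 to 0.18, adjusted p = 0.929, edgeR), and 0.029 without WT library 1, the highest of the 8.

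**Figure D3:**
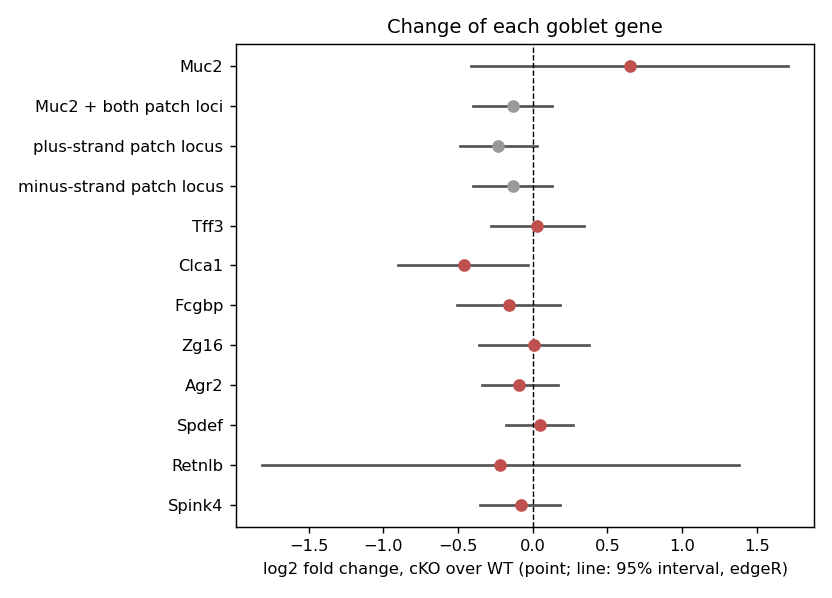
Log2 fold change (cKO over WT) of each mucus gene (red) and of the patch loci and their sum with the Muc2 row (grey), with 95% intervals from the edgeR fit; the dashed line marks 0. The intervals of the Muc2 row (-0.41 to 1.71) and Retnlb (-1.81 to 1.38) are the widest, and that of Clca1 (-0.90 to -0.03) lies below 0 before adjustment.

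Per length, in FPKM (a level corrected for the length of the gene and for depth), the mean level over the 8 libraries was highest for Tff3 at 1400, followed by Spink4 at 1040, Zg16 at 844, Fcgbp at 407, Agr2 at 264 and Clca1 at 222. Spdef followed at 15.4 FPKM, Retnlb at 2.71 FPKM and the Muc2 row at 1.61 FPKM. Tff3 was above Spink4, Zg16 above Fcgbp, Fcgbp above Agr2, Clca1 above Spdef and Spdef above Retnlb in 8 of 8 libraries. Spink4 was above Zg16 in 7 of 8, Agr2 above Clca1 in 6 of 8 and Retnlb above the Muc2 row in 5 of 8, so these neighbours are not separated in every library. The minus-strand patch locus stood at 63.9 ± 6.88 FPKM in cKO and 70.0 ± 7.07 FPKM in WT, and the plus-strand locus at 10.6 ± 1.32 FPKM in cKO and 12.4 ± 1.12 FPKM in WT (SD, n = 4 each). The place of Muc2 in this order depends on which row is read.

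Together the 9 genes held 0.840%, 0.663%, 0.789% and 0.677% of all counts in cKO libraries 1 to 4, against 0.921%, 0.819%, 0.780% and 0.756% in WT. The means were 0.742 ± 0.0862% in cKO and 0.819 ± 0.0728% in WT (SD, n = 4 each), and the ranges overlapped. These shares leave out the patch loci. With both patch loci added they were 0.784 ± 0.0831% in cKO and 0.865 ± 0.0758% in WT, again with overlap. The median of the 9 genes, each on the log2 scale relative to its mean over the 8 libraries, was 0.127, -0.198, -0.023 and -0.127 in cKO, and 0.122, 0.014, -0.02 and -0.091 in WT. The spread within each group was larger than the difference of -0.0615 between the group means.

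Within cKO, a pattern noticed in the values ran through several genes at once. Of the 9 genes, 6 (Fcgbp, Tff3, Clca1, Zg16, Retnlb and, within a narrow range, Spink4) were higher in cKO libraries 1 and 3 than in cKO libraries 2 and 4. The Muc2 row was lower there, and Agr2 and Spdef followed neither order. How many of all genes split these libraries in the same way was not counted. The pattern can therefore not be called particular to the mucus genes. The lymphocyte marker score (the median over 10 T and intraepithelial lymphocyte markers of log2 CPM relative to the 8-library mean) was 0.63 and 1.21 in cKO libraries 1 and 3, and -0.57 and -0.42 in cKO libraries 2 and 4. The enterocyte marker score was 0.27 and 0.29 in cKO libraries 1 and 3, and -0.13 and -0.15 in cKO libraries 2 and 4. Of the lymphocyte markers 10 of 10 had a point estimate above 0 in cKO against WT and 0 passed the test, their summed level ran from 194 to 646 CPM in cKO and from 154 to 522 CPM in WT, and none was at 0 in all libraries. The crypt stem cell marker score went the other way, at -0.33 and 0.02 in cKO libraries 1 and 3, and 0.33 and 0.11 in cKO libraries 2 and 4. Total counts were 17494154 and 18351748 in cKO libraries 1 and 3, and 16265600 and 15110451 in cKO libraries 2 and 4. In WT libraries 1 to 4 they were 18708335, 17909851, 17134938 and 15982538, the order of Fcgbp and Tff3 there. The part of these cell types or of depth in the levels of the mucus genes was not tested. In WT, the lymphocyte and enterocyte scores did not share the order of Fcgbp and Tff3. The lymphocyte score was highest in WT library 4 at 0.83, where Fcgbp and Tff3 were lowest of the WT libraries. The enterocyte score was highest in WT library 3 at 0.82.

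**Figure D4:**
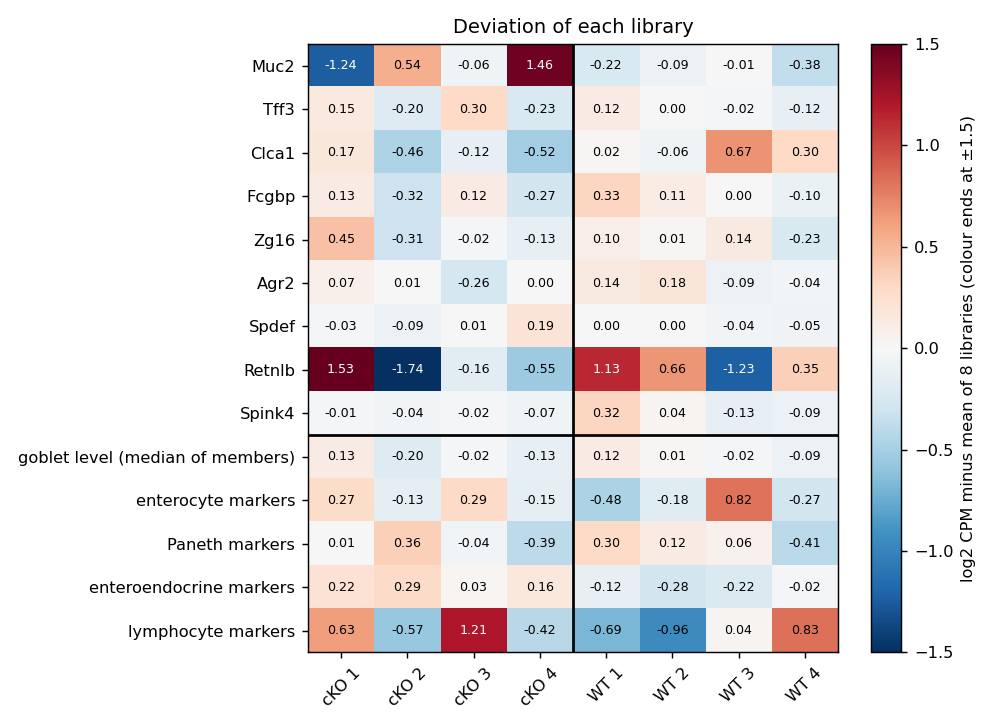
Log2 CPM of the 9 mucus genes in each library minus the mean of the 8 libraries, above the median of the 9 genes and the scores of other cell types on the same scale, with cKO libraries to the left of the vertical line and WT libraries to the right. Retnlb (down to -1.74 in cKO library 2) and the Muc2 row (up to 1.46 in cKO library 4) deviate more than the other mucus genes, and lymphocyte markers range from -0.96 in WT library 2 to 1.21 in cKO library 3.

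Over the 8 libraries the 36 pairs of mucus genes had a median Pearson r of 0.206, and 0 pairs passed an adjusted p of 0.05 in exact permutation tests with Benjamini-Hochberg adjustment over the 36 (3 at an unadjusted 0.05). The highest was Tff3 with Fcgbp, with r = 0.827 (two-sided exact permutation p = 0.0122, adjusted p = 0.331) and Spearman rho = 0.881 (permutation p = 0.00724, adjusted p = 0.193). Without cKO libraries 3 and 4, the farthest from the median of Tff3, r was 0.912. The lowest r was that of the Muc2 row with Retnlb, at -0.663 (permutation p = 0.0657, adjusted p = 0.331). Its Spearman rho was -0.857 (permutation p = 0.0107, adjusted p = 0.193), and r was -0.804 without cKO libraries 1 and 4. Both rows held few counts, and with Muc2 summed over the 3 rows r with Retnlb was -0.301. With Muc2 summed over the 3 rows the lowest r of any pair was -0.452. The 8 libraries include both genotypes, and with values centred within genotype the median r was 0.124. That of Tff3 with Fcgbp was then 0.925 (permutation p = 0.00179, adjusted p = 0.0643). This p is approximate, because the centred values were permuted across both genotypes.

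Of 10 transcription factors that act in goblet and secretory cells, 0 passed the test, 8 had a point estimate above 0 and 2 below, and the median log2 fold change was 0.13, against 0.002 for all genes tested. Foxa2, a forkhead factor expressed in goblet cells, had 12.5, 14.8, 12.9 and 13.6 CPM in cKO, against 12.3, 8.95, 9.95 and 9.97 CPM in WT, with no overlap. Its log2 fold change was 0.39 ± 0.15 (unadjusted p = 0.0231, adjusted p = 0.921, edgeR). Xbp1, the factor of the unfolded protein response needed for secretory cells, stood at 0.19 ± 0.12, Creb3l4 at 0.17 ± 0.12 and Elf3, an epithelial ETS factor, at 0.16 ± 0.16 on the log2 scale. Atoh1, which specifies the secretory lineage, had 26.7 CPM in cKO and 27.2 CPM in WT.

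Of 24 genes for the O-glycosylation of mucins, 23 were tested and 0 passed; 8 had a point estimate above 0 and 15 below, with a median log2 fold change of -0.13. St3gal1, a sialyltransferase that caps the core of O-glycans, had 30.2, 36.6, 32.8 and 39.3 CPM in cKO, against 20.7, 22.7, 21.8 and 26.9 CPM in WT, with no overlap. Its log2 fold change of 0.59 ± 0.13 had an unadjusted p of 0.000701 and an adjusted p of 0.509 with edgeR, and an adjusted p of 0.0248 with DESeq2's Wald test. B3gnt6, the core 3 synthase of mucin O-glycans, had from 8 to 10 counts per cKO library and from 13 to 21 per WT library (log2 fold change -0.92 ± 0.32, adjusted p = 0.921, edgeR), again with no overlap. C1galt1, the core 1 synthase, stood at -0.26 ± 0.17 and B4galnt2 at -0.17 ± 0.12. In St6galnac2 the point estimate was 0.00 ± 0.17. Across the list, 2 of 23 genes had groups without overlap, against 3.21% of all genes tested.

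Among 22 genes for the folding of secreted proteins 0 passed the test, and 10 point estimates were above 0 and 12 below, with a median log2 fold change of -0.02. Calr, a chaperone of glycoproteins, averaged 863 CPM in both groups, and Pdia3, a disulphide isomerase, 713 ± 98.2 CPM in cKO and 815 ± 75.4 CPM in WT. Dnajc10, a reductase of the same compartment, had a log2 fold change of -0.21 ± 0.11, and Ero1l, the oxidase that recharges disulphide isomerases, -0.23 ± 0.12. Both had an adjusted p of 0.921 (edgeR).

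Of 15 genes for granule traffic and exocytosis, 14 were tested and 0 passed, with 5 point estimates above 0, 9 below and a median log2 fold change of -0.12. Rab27b, a small GTPase of secretory granules, had 29.7, 35.9, 18.3 and 31.3 CPM in cKO, against 39.0, 40.6, 43.8 and 42.1 CPM in WT. Its groups did not overlap, and the lowest value was in cKO library 3. This gave a log2 fold change of -0.52 ± 0.18 (unadjusted p = 0.0127, adjusted p = 0.921, edgeR). Its effector Sytl4 stood at -0.37 ± 0.20 and Slc12a2, the basolateral chloride cotransporter, at -0.22 ± 0.21.

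Of 20 other genes known as goblet cell markers, 0 passed; 12 point estimates were above 0 and 8 below, with a median log2 fold change of 0.03. Ang4, an antimicrobial ribonuclease made by goblet and Paneth cells, had 509, 523, 340 and 548 CPM in cKO libraries 1 to 4, against 776, 537, 1110 and 964 CPM in WT. Only WT library 2 fell within the cKO range. The log2 fold change was -0.82 ± 0.22 (480 ± 94.6 CPM in cKO, 845 ± 246 CPM in WT, SD, n = 4 each; unadjusted p = 0.00386, adjusted p = 0.891, edgeR). Mptx1, a mucosal pentraxin, stood at -1.61 ± 0.55 (adjusted p = 0.921, edgeR), with its highest values in WT libraries 3 and 4. It had few reads, from 20 to 54 counts per cKO library and from 45 to 216 per WT library, and the groups overlapped. Without WT library 4 its log2 fold change was -1.07. Capn9, a calpain of the gut, had groups that did not overlap, from 13.8 to 17.3 CPM in cKO and from 17.5 to 21.5 CPM in WT (log2 fold change -0.35 ± 0.13, adjusted p = 0.921, edgeR).

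Of 12 other mucin genes 11 were in the tables and 6 were tested, with 0 passing the test, 3 point estimates above 0, 3 below and a median log2 fold change of 0.05. Muc13, a membrane mucin of enterocytes and goblet cells, was the most abundant, with 2790, 1240, 2560 and 1560 CPM in cKO libraries 1 to 4, against 1700, 2040, 2190 and 1440 CPM in WT. Here too cKO libraries 1 and 3 were the higher ones, and the WT range lay within the cKO range (log2 fold change 0.15 ± 0.25, adjusted p = 0.943, edgeR). Muc4, also a membrane mucin, stood at 0.12 ± 0.25. Muc6, a gel-forming mucin of the stomach and duodenal glands, was at 0.852 ± 0.409 CPM in cKO and 0.616 ± 0.262 CPM in WT. The gastric and airway mucin Muc5ac, and Muc15 and Muc19, had 0 counts in all 8 libraries, which allows at most between 0.159 and 0.192 CPM per library (3 counts, counting error only).

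Of 16 paralogs of the mucus genes 14 were in the tables and 8 were tested, with 0 passing, 3 point estimates above 0, 5 below and a median log2 fold change of -0.10. The Clca genes, Clca1 included, lie side by side on chromosome 3 and resemble each other, so the counting may have divided reads among them and their levels are uncertain. Clca3b had 815, 820, 2360 and 1350 CPM in cKO, against 1190, 1250, 1400 and 1300 CPM in WT. The high value is in cKO library 3, and without it the log2 fold change of 0.06 ± 0.31 became -0.367. Clca4b stood at -0.36 ± 0.30, and at 0.054 without WT library 3. For Clca3a2 it was -0.34 ± 0.19, and for Clca2, at under 1 CPM in both groups, -0.79 ± 0.57. Tff1, the gastric trefoil peptide, had 0 counts in all 8 libraries.

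Type 2 cytokines are known inducers of goblet cell genes, and of 14 genes of this pathway 6 were tested, with 0 passing, 3 point estimates above 0, 3 below and a median log2 fold change of -0.13. Il5, Il9 and Il13ra2 had 0 counts in all 8 libraries. Il33, an alarmin of epithelial and stromal cells, stood at -0.99 ± 0.53, with 4.99 ± 2.65 CPM in cKO and 9.93 ± 7.58 CPM in WT. WT library 3 was at 21.2 CPM and the other WT libraries between 5.25 and 7.57 CPM, and without WT library 3 the log2 fold change of Il33 was -0.304. Of the receptors, Il13ra1 stood at -0.33 ± 0.20 and Il4ra at 0.24 ± 0.24. Stat6, the transcription factor they share, had 166 ± 12.3 CPM in cKO and 158 ± 9.34 CPM in WT, and none of these passed the test.

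At an unadjusted p of 0.05 in the edgeR fit, the count was 1 of 10 transcription factors, 2 of 23 O-glycosylation genes, 1 of 14 granule genes and 3 of 20 other goblet markers, against 3.90% of all genes tested. It was 0 for the folding genes, the other mucins, the paralogs and the type 2 cytokine genes. With DESeq2's Wald test, St3gal1 was the gene called among these 8 lists, against 0.252% of all genes tested.

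**Figure D5:**
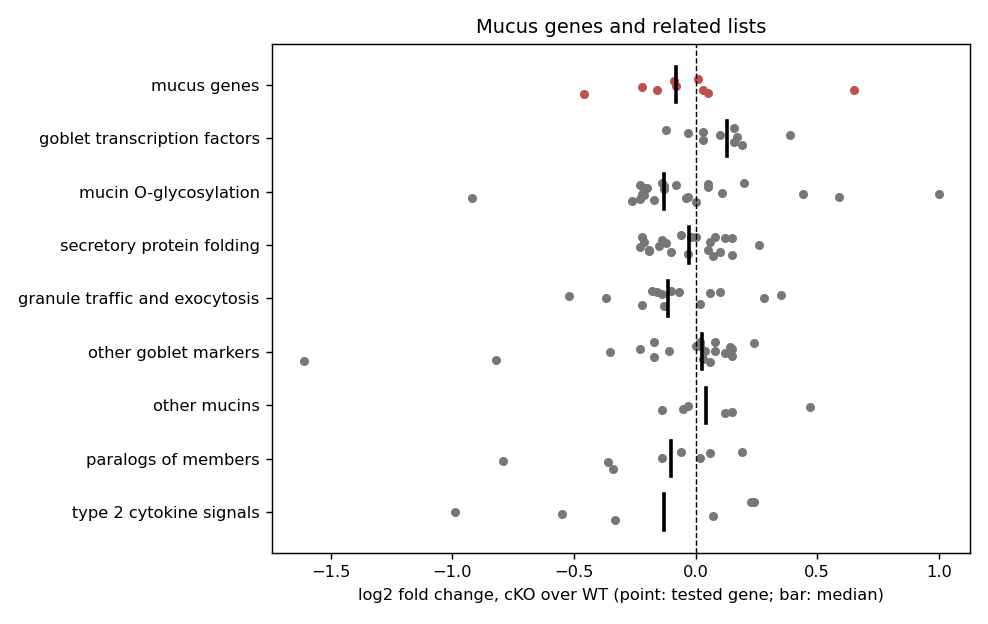
Log2 fold change (cKO over WT) of each tested gene in the mucus genes (red) and in 8 related lists (grey), with a black bar at the median of each list and a dashed line at 0. The medians lie between -0.13 and 0.13, and no gene in these lists passed the adjusted threshold of edgeR.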

How the data were processed

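RNA was assessed with a Bioanalyzer and sequenced on an Illumina NovaSeq, and Hisat2 (alignment) and Stringtie (assembly) were used, per the labels' protocols and design text. The authors deposited raw read counts per gene and FPKM for the same genes. The sources used here do not give versions, build, counting program, strand, or treatment of reads with several matches. Of 53620 identifiers found in GENCODE M21, 97.1% had identical coordinates there, so positions are on GRCm38. 338 loci carry no Ensembl identifier. Every pair of libraries differed by more than sampling noise (chi-square over degrees of freedom of at least 10.7).

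Counts were tested with edgeR 4.0.16 (R 4.3.3): TMM factors, default filter, robust quasi-likelihood fit on genotype, Benjamini-Hochberg adjustment over 14701 genes at 0.05. CPM use TMM-scaled totals. Log2 fold changes are cKO over WT, ± SE. Centred values use log2 CPM with prior count 2. Alternatives were other scalings and filters, libraries left out, a replicate block, removal of a length and GC trend, limma 3.58.1 (voom with quality weights, and log2(FPKM + 0.1 or 1)) and DESeq2 1.42.0. The edgeR step was tested on simulated data for 14701 genes. In that simulation 67 genes changed by 1.5-fold, 67 by 2-fold and 66 by 4-fold. The edgeR step called 16.4%, 55.2% and 89.4% of them in that order, and 3.6% of its calls were false. The more genes change, the larger the p that passes the adjustment, and in the data 2 genes passed. The simulated shares may therefore be too high for these data. A change of 1.5-fold would often be missed, and larger changes may be missed too.

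The 9 genes, the related lists and the tests were chosen with earlier results of these data known, and leaving out cKO library 3 and WT library 3 together was chosen likewise. Besides the 9 genes, the text names Rictor, called genes, the 3 genes most correlated with Muc2, and from each of 8 lists the 3 genes with the smallest p and the most abundant one. A gene that this rule names is not reported here. Outside that rule, Atoh1, St6galnac2, the patch loci and genes at 0 counts were named after their values were seen.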

Additional observations from a re-analysis of the deposited data

Results flagged for a closer look

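Of 92 groups of 4 libraries examined for the genes and loci named, 4 had 1 library far from the other 3, by Dixon's test at the 95% level. Chance gives about 1 in 20. In WT library 3, Il33 was high with 21.2 CPM, where the other WT libraries had 5.25 to 7.57 CPM. Stat6 was high in both libraries numbered 3, with 184 CPM in cKO (159 to 161 CPM in the other cKO libraries) and 172 CPM in WT (153 to 154 CPM in the other WT libraries). The plus-strand patch locus was low in WT library 4 at 90.1 CPM, against 108 to 110 CPM in the other WT libraries. None of the 9 mucus genes had such a library in either group, including Muc2, Retnlb and Clca1.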

How the results depend on the processing

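No mucus gene was called under any of the 21 alternatives, so the count stayed at 0 of 9. The number of genes called, 2, became 10 without a filter, 4 with both libraries numbered 3 left out, 8 with voom quality weights, 37 with DESeq2, 0 with limma on filtered log2(FPKM + 0.1) or log2(FPKM + 1), and from 0 to 3 with 1 library left out. Same-numbered libraries correlated in their deviations at -0.108 for number 1 and at 0.108, 0.152 and 0.138 for numbers 2, 3 and 4, so not all pairs deviated together, and with the replicate number as a block 0 genes were called (Popdc3 adjusted p = 0.0665, Ces1f 0.302). The median of the mucus genes ran from -0.133 to 0.091 with 1 library left out, above 0 without WT 1 (0.048) or cKO 2 (0.091).

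Signs reversed only for genes that passed no test. With both libraries 3 out these were Tff3 (-0.085), Elf3 (-0.018), Muc4 (-0.197), Clca4b (0.083) and Clca3b (-0.321). With the replicate block they were Zg16 (-0.009) and Clca3b (-0.088). With the length and GC trend removed, which was larger in cKO library 3 (SD 0.261 on the log2 scale) than in the others (0.0225 to 0.0661), they were Tff3 (-0.08), Zg16 (-0.022), Spdef (-0.077) and Stat6 (-0.021). With voom weights they were Tff3 (-0.158), Zg16 (-0.108), Elf3 (-0.107), Muc13 (-0.169), Muc4 (-0.096), Clca3b (-0.193) and Il4ra (-0.048). In all 3 FPKM fits they were Zg16 (-0.01) and Clca3b (-0.086). Muc2 summed with the patch loci gave -0.133.

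With 1 library left out, the ranges were -0.079 to 0.108 for Tff3, -0.16 to 0.116 for Zg16, -1.229 to 0.133 for Retnlb, -0.134 to 0.029 for Spink4, -0.009 to 0.091 for Spdef, -0.099 to 0.31 for Muc4, -0.51 to 0.054 for Clca4b, -0.044 to 0.331 for Muc13, -0.367 to 0.244 for Clca3b, -0.031 to 0.438 for Gm37637 and -0.109 to 0.26 for Ccdc15. The cause of these changes was not tested.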
